A study of Capra hircus with 12 samples.

Results

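The miRNAs described here are the arms of miR-378 and miR-335, all names in the deposited tables that carry either number. They comprise 4 of the miRNAs listed, of which 300 passed the filter on low counts given below and 76 did not. Named chi-miR-378-3p, chi-miR-378-5p, chi-miR-335-3p and chi-miR-335-5p in the tables (chi for Capra hircus), they are written here without the prefix. Both precursors were chosen by the rise of their 3p arms from May to September in these same counts, so values of that difference are given as a description with no test. Small RNA was sequenced from isolated secondary hair follicles (SHFs), which produce the cashmere fiber, of Liaoning cashmere goats aged 1.5 years. One library of female and 1 of male goats was made in each of 6 months, 12 libraries in all. The months of telogen were February and March (4 libraries) and those of catagen November and December (4 libraries), while May stood for early anagen and September for mid-anagen, with 2 libraries each. The goats carried no engineered allele and received no agent that the sources mention. The follicles came from skin of the back over the scapula and were freed with a scalpel under a dissecting microscope. The methods describe several goats of each sex at a time point but not how they were combined, so each library was taken as 1 replicate and p-values measure only the spread between these libraries.

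A miRNA precursor is a hairpin whose sides, the 5p and 3p arms, can each yield a mature miRNA, and usually one arm accumulates far above the other. A mature miRNA guides Argonaute proteins to messenger RNAs that match its seed and lowers their output. miR-378 lies in an intron of PPARGC1B, which encodes a coactivator of genes of mitochondrial and oxidative metabolism, and is itself studied in lipid and energy metabolism. miR-335 lies in an intron of MEST, an imprinted gene expressed from the paternal copy and active in mesoderm and growing fat. Secondary follicles pass each year through growth (anagen), regression (catagen) and rest (telogen). In the RefSeq goat annotation (assembly ARS1.2), the miR-378 gene lay within PPARGC1B and the miR-335 gene within MEST, and 0 other miRNA genes were annotated within 50 kb of either. The messenger RNAs of both host genes were not measured in these libraries.

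Libraries held 3135292 to 5788032 counts on miRNAs. The deposited TPM is the count scaled by the library total of such counts, with no length term, and mature miRNAs are of nearly equal length. The epithelial miRNAs (miR-203, miR-141, miR-429 and the miR-200 family) summed to a TPM of 56735 to 96687, with miR-203 alone at 43797 to 82083. The 5 dermal miRNAs of the miR-199 and miR-214 families summed to 23075 to 65281. The libraries thus held both epithelial and dermal miRNAs. The paper found miR-203 in the SHF hair shaft, but by RT-qPCR at a lower level in SHFs than in epidermis or primary hair follicles. Whether part of the epithelial signal came from other skin was not tested. miR-205, another epithelial marker, had no row in the tables used here. The liver miRNA miR-122 was at a TPM of 73.2 and 87.3 in the male February and March libraries and at 0.48 to 4.45 in the other 10. The comparison of catagen with telogen was therefore also run without both of these libraries. In bulk follicle RNA, fewer cells of a type and less of a miRNA per cell cannot be told apart.

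miR-378-3p was among the abundant miRNAs of the follicle, and miR-335-3p was of middling abundance. By TPM, miR-378-3p ranked 29th to 47th of all listed miRNAs across the libraries, miR-335-3p 87th to 145th, miR-378-5p 173rd to 215th and miR-335-5p 213th to 257th. All 4 passed the filter of more than 5 CPM (counts scaled by the library total, as in TPM) in at least 2 libraries. Summed over the 12 libraries, miR-378 had 164514 counts on its 3p arm and 1037 on its 5p arm, a 3p share of 99.4%. The corresponding totals for miR-335 were 8225 and 439, a 3p share of 94.9%. The 5p arms were read from few counts, 53 to 140 per library for miR-378-5p and 25 to 63 for miR-335-5p. An exact 95% Poisson interval on 25 counts runs from 16.2 to 36.9, and it covers counting error only, since reads without molecular identifiers are not independent molecules.

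The level of miR-378-3p fell into a low season from February to May and a high season from September to December. Its TPM in the female and male library was 2354 and 2404 in February, 2363 and 2881 in March, and 2197 and 2128 in May. It was 4200 and 3887 in September, 3452 and 3902 in November, and 3311 and 3098 in December. Each of the 6 libraries from September to December was above each of the 6 from February to May. The May and September libraries among them were used to choose the members. The share of all miRNAs that split in this way was not counted. The means were 2501 ± 255 in telogen (SD, n = 4), 2163 ± 48.8 in May (n = 2), 4043 ± 221 in September (n = 2) and 3441 ± 340 in catagen (n = 4). On TMM-normalized CPM, which adjusts each library for its composition, the months ran from September (mean 4608) and November (4428) to December (3599), March (2305), February (2221) and May (1707). In that order the ranges of September and November overlapped, as did those of March and February, and each of the other neighbours was apart.

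miR-335-3p followed the same seasons at a lower level and with more spread between the sexes. Its TPM in the female and male library was 89.3 and 163 in February, 57.7 and 156 in March, and 88.0 and 69.9 in May. It was 251 and 176 in September, 195 and 179 in November, and 197 and 184 in December. Again each library from September to December exceeded each library from February to May, with the same limits as for miR-378-3p. The male libraries of February and March lay closest to the gap. The means were 116 ± 51.3 in telogen (SD, n = 4), 78.9 ± 12.8 in May (n = 2), 213.9 ± 52.9 in September (n = 2) and 189 ± 8.57 in catagen (n = 4). On TMM-normalized CPM, September (mean 245), November (226) and December (213.6) overlapped with their neighbours, as did February (116), March (90.9) and May (62.4), and the only step without overlap was that from December to February.

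**Figure D1:**
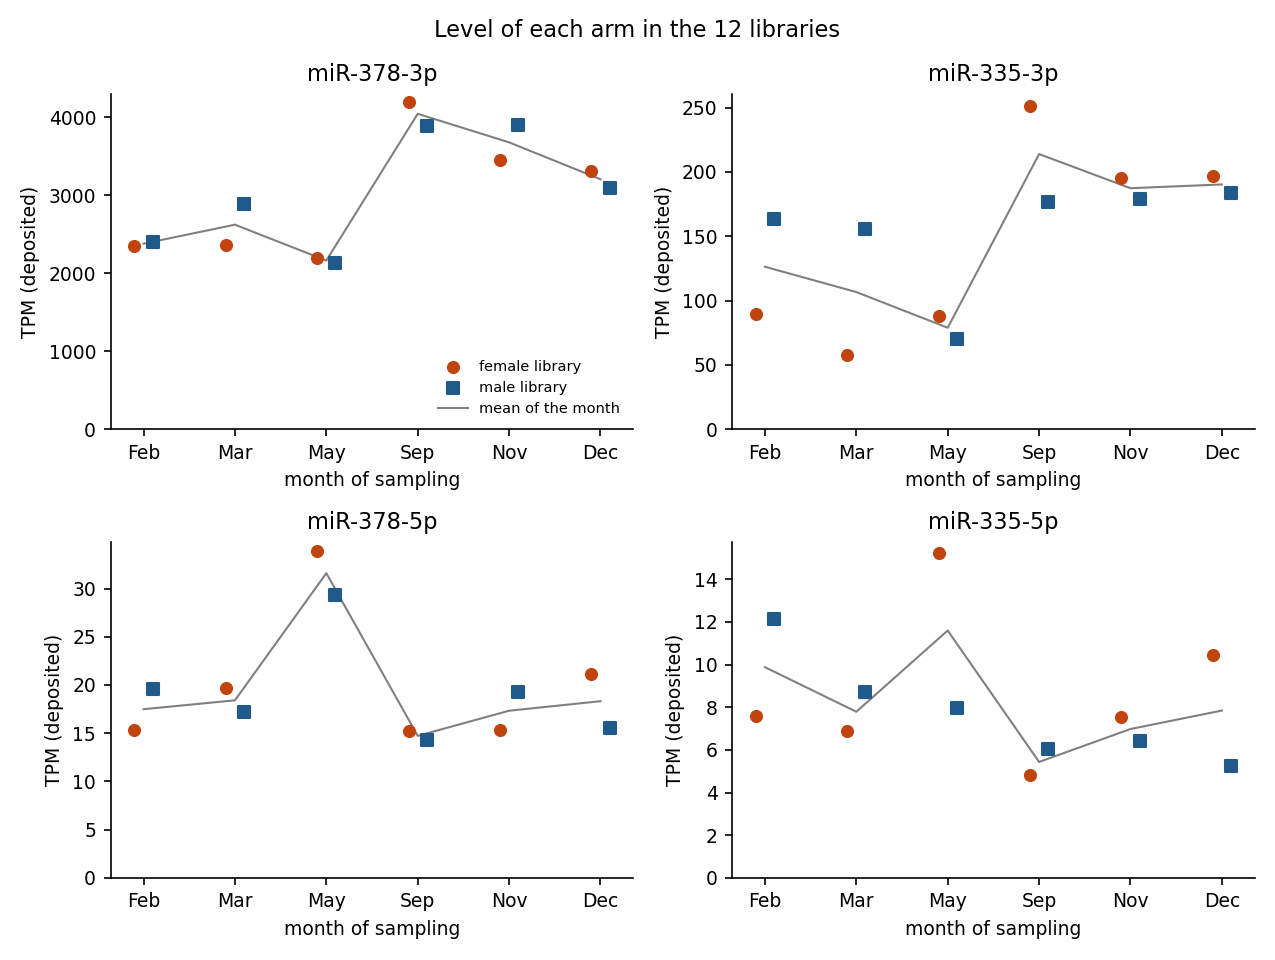
Deposited TPM of the 4 arms (y axis, from 0) by month of sampling (x axis) in the female (circles) and male (squares) libraries, with a line through the monthly means. Both 3p arms are higher in all 6 libraries from September to December (miR-378-3p 3098 to 4200, miR-335-3p 176 to 251) than in the 6 from February to May. The choice of members used the May and September libraries. The share of all miRNAs that split in this way was not counted. miR-378-5p is highest in May (33.9 and 29.3).

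The 5p arms did not share this division of the year. The TPM of miR-378-5p was highest in May, at 33.9 in the female and 29.3 in the male library, and lay between 14.3 and 21.1 in the other 10 libraries. Its means were 17.9 ± 2.06 in telogen (SD, n = 4), 31.6 ± 3.19 in May (n = 2), 14.7 ± 0.643 in September (n = 2) and 17.8 ± 2.86 in catagen (n = 4). On TMM-normalized CPM, however, the male May library (22.8) lay within reach of November and December, which rose to 22.8 and 23.0. For miR-335-5p, the TPM in the female and male library was 7.60 and 12.2 in February, 6.87 and 8.71 in March, 15.2 and 7.97 in May, 4.81 and 6.06 in September, 7.52 and 6.44 in November, and 10.45 and 5.24 in December. Both September libraries, with 26 and 31 counts, were below all May and telogen libraries in TPM, and the other phases overlapped. On TMM-normalized CPM September also overlapped, with a maximum of 6.64 against a minimum of 6.20 in May and 6.61 in telogen.

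From May to September, the difference for which the precursors were picked, the 3p arms moved up and the 5p arms down. In TPM, miR-335-3p was 2.85-fold higher in September in the female and 2.53-fold higher in the male libraries, and miR-378-3p 1.91-fold and 1.83-fold. On the TMM scale the log2 difference was 1.97 (SE 0.37) for miR-335-3p, the 3rd highest of 300 tested miRNAs, and 1.43 (SE 0.16) for miR-378-3p, the 14th. It was -0.57 (SE 0.24) for miR-378-5p and -0.59 (SE 0.39) for miR-335-5p, although the male libraries alone gave 0.10 for miR-335-5p on this scale. Over all 300 miRNAs, 34% passed an adjusted p of 0.05 between these months by edgeR's quasi-likelihood test and 18.7% passed upwards, and nothing is read from this share since the contrast chose the members. When libraries were scaled by their totals instead, the median of all miRNAs moved from 0.07 to -0.46, and the members stood at 1.44 (miR-335-3p), 0.90 (miR-378-3p), -1.10 (miR-378-5p) and -1.10 (miR-335-5p). Relative to the median, miR-335-3p was at 1.91 with TMM and 1.89 with totals, and miR-378-3p at 1.37 and 1.36. The dermal miRNAs moved between the same libraries, from a summed TPM of 60124 to 65281 in May to 25183 to 26400 in September, and their part in these differences was not tested.

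Set beside the other phases, also as a description, September was above telogen by 1.03 (SE 0.13) on the log2 scale for miR-378-3p and 1.25 (SE 0.30) for miR-335-3p. May was below telogen by -0.41 (SE 0.14) and -0.73 (SE 0.32). The corresponding value for miR-378-5p, May minus telogen, was 0.61 (SE 0.20). Catagen minus September was -0.20 (SE 0.13) for miR-378-3p and -0.16 (SE 0.30) for miR-335-3p.

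The rise that chose the members did not use the 8 telogen and catagen libraries, so this comparison was tested. The choice was made with earlier results of these data known, and the fit took its spread from all 12 libraries. Catagen, the regression of the follicle, was set against telogen, its rest. Both 3p arms were higher in catagen, miR-378-3p by 1.77-fold and miR-335-3p by 2.13-fold. The 4 telogen and 4 catagen libraries did not overlap in TPM for either. Telogen reached 2881 and catagen started at 3098 for miR-378-3p, and the values were 163 against 179 for miR-335-3p. The share of all miRNAs without such overlap was not counted. The log2 difference was 0.83 for miR-378-3p (SE 0.11, adjusted p = 0.000435, edgeR's quasi-likelihood test with Benjamini-Hochberg adjustment over 300 miRNAs). For miR-335-3p it was 1.09 (SE 0.25, adjusted p = 0.00613, same test). The 5p arms were not past the threshold, with 0.34 for miR-378-5p (SE 0.17, adjusted p = 0.132) and 0.11 for miR-335-5p (SE 0.28, adjusted p = 0.77) by the same test. Thus 2 of the 4 arms passed upwards, beside 35% of all tested miRNAs that passed, 21% upwards and 14% downwards. This split rested on the scale, with 63 upwards and 42 downwards under TMM, 53 and 57 under RLE (the size factors of DESeq2), and 19 and 90 under library totals. With a minimum of 2-fold added, miR-335-3p was called, as were 4.33% of all miRNAs upwards.

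The size of these differences depended on the scale and on single libraries. With library totals the median of all miRNAs moved from -0.00064 to -0.35, miR-378-3p stood at 0.46 (adjusted p = 0.00663), and miR-335-3p at 0.70 no longer passed (adjusted p = 0.0625, edgeR), while their distance from the median stayed at 0.82 and 1.05. On that scale the signs of both 5p arms turned, to -0.01 for miR-378-5p and -0.25 for miR-335-5p, neither of which passed. Without the female March library, miR-335-3p was at 0.86 (adjusted p = 0.00723, edgeR) and under the 2-fold limit. Without both male telogen libraries, miR-335-3p was at 1.54 (adjusted p = 0.000496) and miR-378-3p at 0.74 (adjusted p = 0.00175) by the same test.

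**Figure D2:**
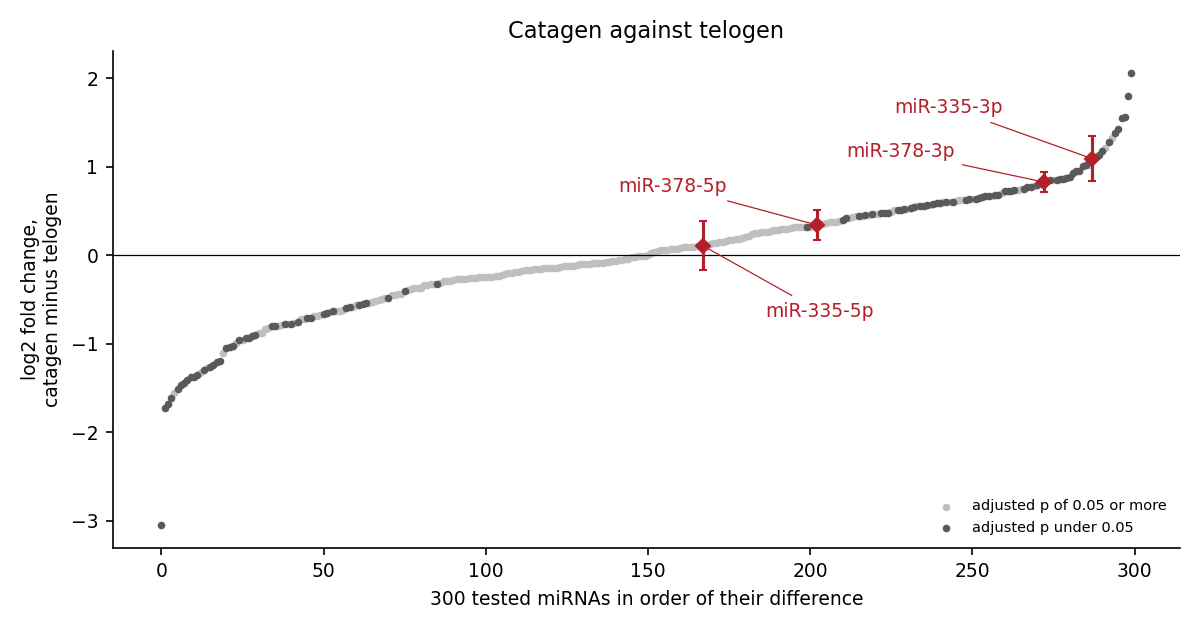
Log2 fold change of catagen minus telogen (y axis) for the 300 tested miRNAs in order of that difference (x axis), with dark points for an adjusted p under 0.05 and diamonds with bars of 1 SE for the 4 arms. miR-335-3p (1.09) and miR-378-3p (0.83) lie among the dark points at the upper end, and miR-378-5p (0.34) and miR-335-5p (0.11) among the pale points.

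Other cell type markers differed between the same phases. The dermal list summed to a TPM of 35417 to 53247 in telogen and 23075 to 31867 in catagen, without overlap, and 3 of its 5 miRNAs passed downwards (miR-199a-3p, miR-214-3p and miR-214-5p). The 2 listed erythrocyte miRNAs, miR-144-5p and miR-451-5p, summed to 27.9 to 115 in telogen and 5.41 to 26.4 in catagen, and miR-451-5p passed downwards. The epithelial list (57929 to 96687 in telogen, 67759 to 94096 in catagen), the muscle list (1902 to 3614, 2466 to 3553), the endothelial miR-126 arms (9022 to 12699, 8819 to 11616) and the leukocyte list (442 to 664, 393 to 540) overlapped between the phases. Among their members miR-203 passed upwards, and miR-141 and both arms of miR-223 passed downwards. The part of these shifts in the differences of the 3p arms was not tested.

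The months on either side of the change from catagen to telogen were also compared. From December to February, miR-378-3p fell by 0.70 on the log2 scale (SE 0.14, adjusted p = 0.032, edgeR's quasi-likelihood test), where 2% of all miRNAs passed downwards. This difference was under the 2-fold limit, so miR-378-3p passed but was not called. It did not pass with RLE (-0.56, adjusted p = 0.0853) or with library totals (-0.43, adjusted p = 0.124) by the same test. miR-335-3p differed by -0.88 over the same step (SE 0.37, adjusted p = 0.188, same test), with the December libraries at 215 and 213 TMM-normalized CPM and the February libraries at 88.8 (female) and 143 (male). Over this step miR-378-5p differed by -0.34 (adjusted p = 0.494) and miR-335-5p by 0.06 (adjusted p = 0.953).

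Within a phase the 4 arms showed no step that passed. From February to March the log2 differences were 0.05 for miR-378-3p, -0.35 for miR-335-3p, 0.02 for miR-378-5p and -0.41 for miR-335-5p. From November to December they were -0.30 (SE 0.14), -0.08, -0.03 and 0.05 in the same order. By edgeR's quasi-likelihood test, 0 of 300 miRNAs passed in either step, with 15 and 10 at an unadjusted p under 0.05. With RLE, library totals or sex as a block in place of this fit, 0 miRNAs were called in either step. A call also needs a 2-fold change, so this is a stricter limit than passing.

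The balance of the arms within a library does not depend on how libraries are scaled, and it differed between months in both precursors. Its May and September values are given as a description, since the 3p counts that chose the members are part of it. For miR-378 there were 64.9 (female) and 72.5 (male) 3p counts for each 5p count in May, and 277 and 272 in September. In telogen the ratio was 153 and 123 in February and 120 and 168 in March, and in catagen it was 225 and 202 in November and 157 and 200 in December. May had the lowest and September the highest libraries, and catagen and telogen overlapped.

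For miR-335 the 3p counts for each 5p count were 5.78 (female) and 8.76 (male) in May, and 52.2 and 29.1 in September. In telogen they were 11.8 and 13.4 in February and 8.40 and 17.9 in March, and in catagen 25.96 and 27.8 in November and 18.8 and 35.1 in December. Each catagen library was above each telogen library, while the male May library lay above the female March library. How many other precursors split between catagen and telogen in this way was not counted. The female September ratio rests on 26 counts of miR-335-5p (95% interval 16.98 to 38.1).

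**Figure D3:**
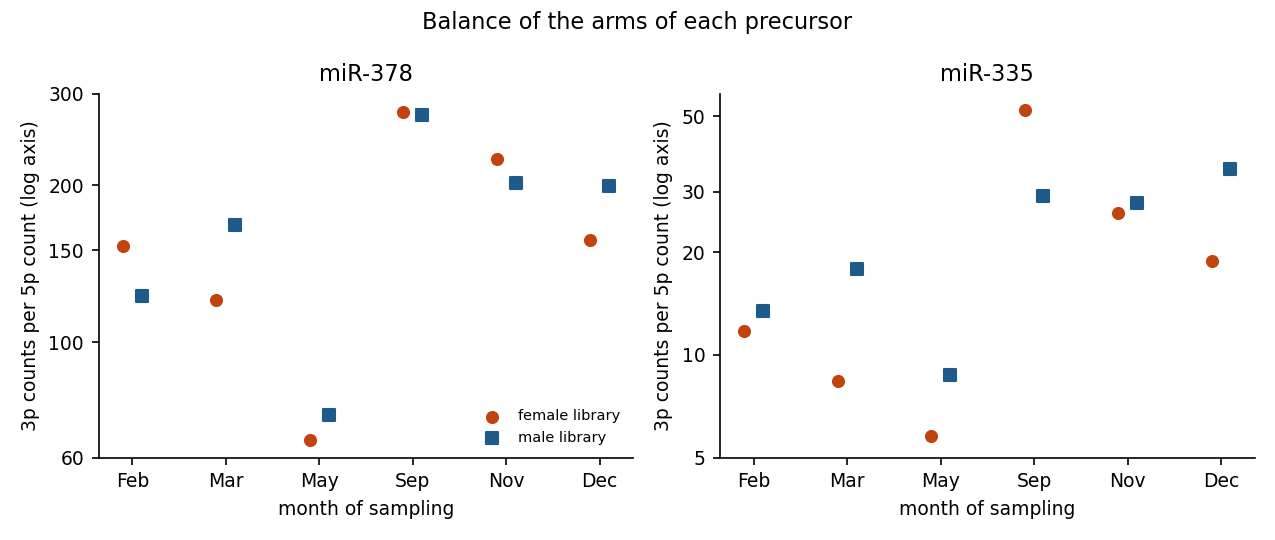
Counts of the 3p arm for each count of the 5p arm (y axis, log scale) by month (x axis) in female (circles) and male (squares) libraries, for miR-378 (left) and miR-335 (right). miR-378 is lowest in May (64.9 and 72.5), where miR-335 (5.78 and 8.76) overlaps with telogen. miR-335 is higher in all 4 catagen libraries (18.8 to 35.1) than in the 4 telogen libraries (8.40 to 17.9). How many other precursors split in this way was not counted. The 3p counts of May and September chose the members.

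The ratio was then tested between catagen and telogen. For miR-335 the mean log2 ratio of 5p to 3p counts, with 1 count added to each arm, was -4.67 in catagen and -3.60 in telogen, a difference of -1.07 (two-sided exact permutation p = 0.0286, the smallest that 4 against 4 libraries allow). For miR-378 the means were -7.58 and -7.11, a difference of -0.47 (exact permutation p = 0.0571). Adjusted over these 2 tests, each p was 0.0571, so neither passed by the permutation test. Over all 82 precursors with both arms tested, limma gave miR-335 an adjusted p of 0.00409 (SE 0.27) and miR-378 an adjusted p of 0.0659 (SE 0.21). In that fit 28% of precursors passed towards the 3p arm and 48.8% in either direction, with a median difference of -0.17. In order from the lowest difference, miR-335 was 8th and miR-378 28th of the 82 precursors. From May to September the difference was -2.44 for miR-335 (SE 0.38, 2nd lowest of 82) and -1.99 for miR-378 (SE 0.30, 6th lowest). These values and ranks are a description, since the 3p rise that chose the members enters the ratio.

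None of the 4 arms differed between female and male libraries past the threshold. With month as a term, the log2 difference female minus male was 0.05 for miR-378-3p (SE 0.09, adjusted p = 0.889, edgeR), 0.14 for miR-378-5p (SE 0.16, adjusted p = 0.837), -0.11 for miR-335-3p (SE 0.22, adjusted p = 0.901) and 0.22 for miR-335-5p (SE 0.24, adjusted p = 0.824). Over all 300 miRNAs 0% passed by edgeR's quasi-likelihood test and 34 had an unadjusted p under 0.05. DESeq2 called 0, under the stricter limit that adds a 2-fold change.

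In telogen, miR-335-3p was lower in the female libraries (57.7 and 89.3 TPM) than in the male libraries (156 and 163 TPM), while in catagen the female libraries (195 and 197) and the male libraries (179 and 184) were close. From telogen to catagen it rose 3.05-fold in females (log2 1.61, SE 0.25) and 1.51-fold in males (log2 0.60, SE 0.24). The difference between these changes was 1.01 (SE 0.34), with an unadjusted p of 0.0136 and an adjusted p of 0.126 by edgeR's quasi-likelihood test, and so was not past the threshold. It was 0.96 for miR-335-5p (SE 0.47, adjusted p = 0.258), -0.10 for miR-378-3p (SE 0.24, adjusted p = 0.856) and -0.06 for miR-378-5p (SE 0.38, adjusted p = 0.988). Of 287 miRNAs tested, 4 passed (1.39%), among them miR-122 (5.13) and the lymphocyte miRNA miR-150 (-1.79).

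Several lists set the male telogen libraries apart from the female ones, in both directions. In February and March the male libraries held a TPM of 73.2 and 87.3 of miR-122, against 2.25 and 1.57 in the female libraries. The erythrocyte miRNAs summed to 52.3 and 115 in the male and 28.2 and 27.9 in the female libraries, and the epithelial list to 79465 and 96687 against 64854 and 57929. The endothelial miR-126 arms were lower in the male libraries, at 9022 and 9990 against 12023 and 12699. Over the 12 libraries, the log2 levels of miR-335-3p and miR-122 had a Pearson r of 0.23, a description over libraries that share their depth and month. This r spans all months. In telogen alone, miR-335-3p and miR-122 were each higher in both male libraries than in both female libraries. The part of the listed miRNAs in the sex pattern of miR-335-3p was not tested.

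**Figure D4:**
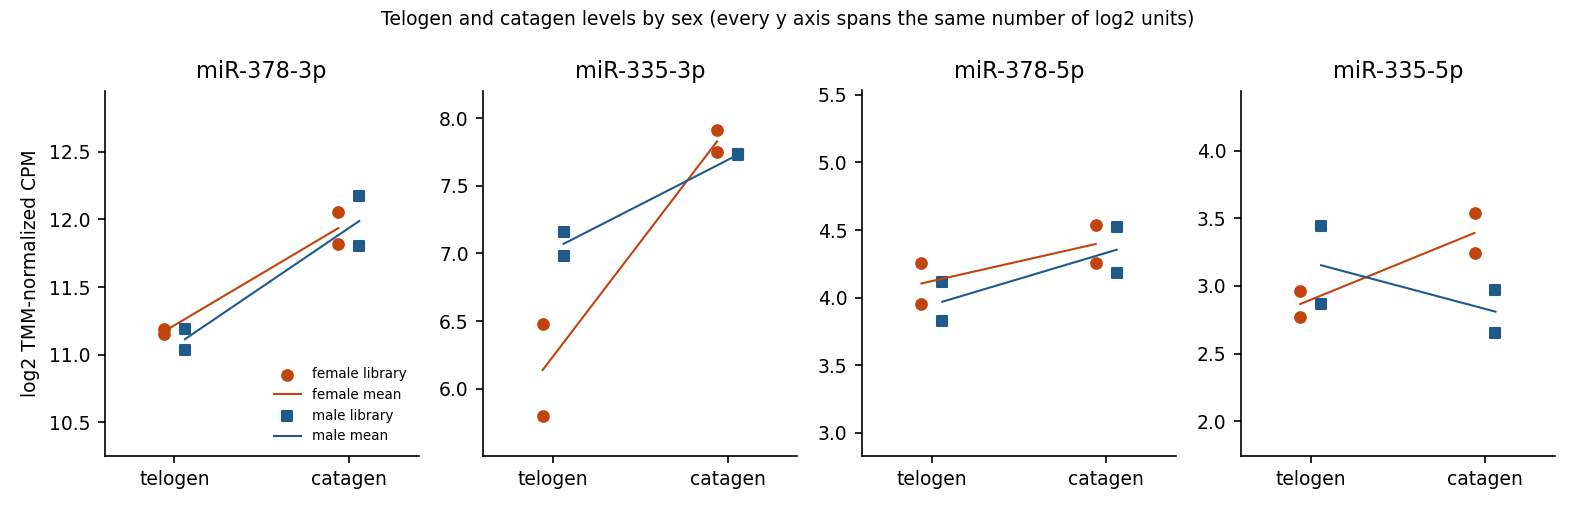
Log2 TMM-normalized CPM (y axis, each panel spanning the same number of log2 units) of the 4 arms in the female (circles) and male (squares) libraries of telogen and catagen (x axis), with lines joining the means of each sex. The female line of miR-335-3p climbs more steeply (3.05-fold) than the male line (1.51-fold), and for miR-378-3p the lines climb by a log2 of 0.73 (SE 0.17) in females and 0.83 (SE 0.17) in males.

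The levels of the 4 arms were also set against each other across libraries. Over the 12 libraries, the Pearson r of log2 TMM-normalized CPM was 0.90 between miR-378-3p and miR-335-3p, and 0.79 over the 8 telogen and catagen libraries. Between the arms of a precursor it was -0.15 for miR-378 and -0.03 for miR-335, and 0.70 and 0.38 over the 8 libraries. These values are descriptions, and the libraries share month, sex and the May and September libraries that the choice of members used.

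The miRNAs with patterns most like each 3p arm were found over the same 12 libraries. For miR-378-3p they were miR-25-3p (r = 0.98), miR-195-3p (0.96), miR-3432-5p (0.96), miR-192-5p (0.96) and miR-30e-3p (0.95). Of these, miR-25-3p is encoded in an intron of MCM7 and miR-30e in an intron of NFYC. For miR-335-3p they were miR-99b-3p (r = 0.97), miR-125b-3p (0.97), novel_704 (0.93), novel_98 (0.92) and miR-27a-5p (0.92). In abundance these differed widely, with a TPM of 3.83 to 50.6 for novel_704, 4.91 to 20.5 for miR-99b-3p and 4095 to 5890 for miR-25-3p. Without the May and September libraries 2 of the 5 for miR-378-3p and 1 of the 5 for miR-335-3p stayed among the closest.

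**Figure D5:**
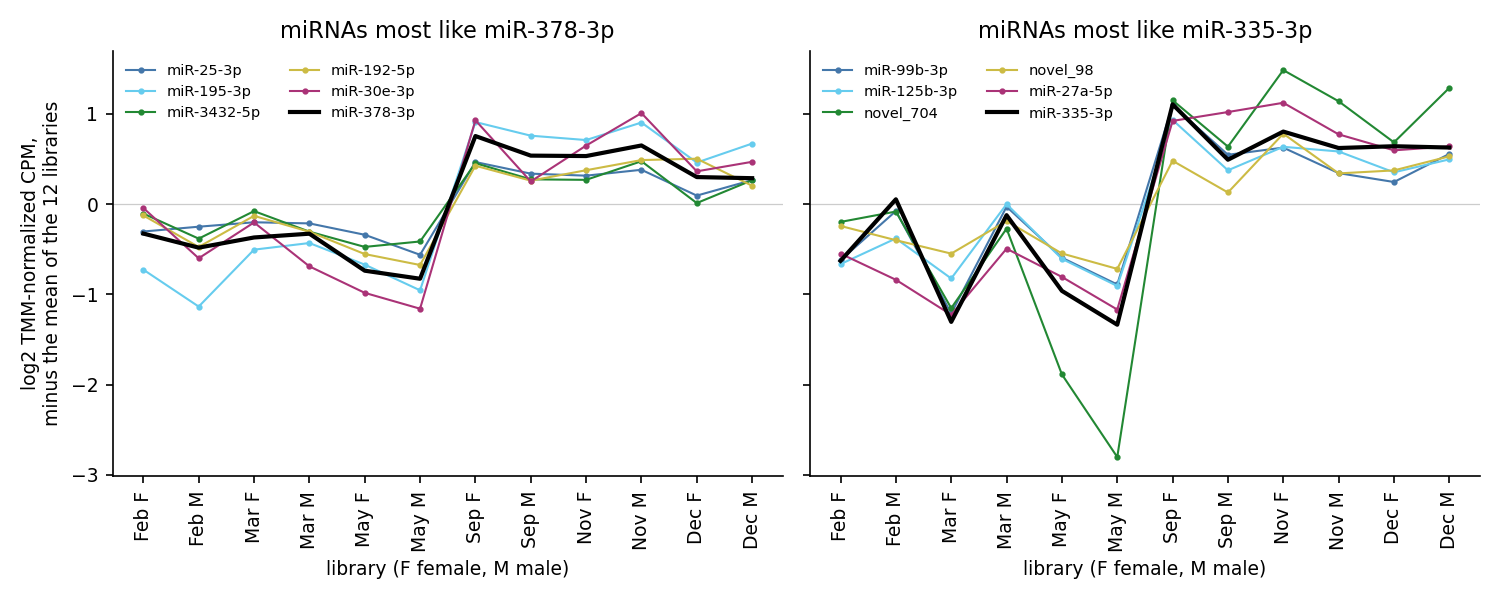
Log2 TMM-normalized CPM minus the mean of the 12 libraries (y axis) in each library (x axis, F female and M male) for miR-378-3p (left, black) and miR-335-3p (right, black) with the 5 miRNAs of highest Pearson r. In both panels the traces lie mostly below 0 from February to May and above 0 from September to December, and novel_704 has the deepest trough in May.

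Other miRNAs of families known to lie in introns of protein-coding genes, like both members, were examined as a list. Their hosts were not looked up in the goat annotation, and the list may not be complete. Of 73 miRNAs listed, 62 were tested between catagen and telogen. Of these, 13 (21%) passed upwards and 7 (11.3%) downwards, near the 21% and 14% of all miRNAs. Their median log2 difference was 0.02, against -0.00064 for all 300. Of the list, miR-151-3p (1.11) and miR-30e-3p (1.003) were called upwards and miR-190a-5p (-1.20) downwards. With RLE the list had 8 in each direction, and with library totals 4 upwards and 21 downwards, where its median (-0.35) moved with that of all miRNAs.

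miRNAs of other imprinted loci, mostly the DLK1-DIO3 cluster, were listed beside miR-335. Of 45 listed, 34 were tested, with a median of -0.77 (-0.85 with RLE and -1.16 with library totals). In catagen 1 passed upwards, miR-296-3p of the GNAS locus (1.28), and 10 (29.4%) passed downwards, beside 21% and 14% of all miRNAs. With RLE 13 of the list and 57 of all 300 passed downwards, and with library totals 16 and 90. Those called downwards were miR-136-3p, miR-136-5p, miR-369-3p, miR-376c-3p, miR-376e-3p, miR-409-3p, miR-411b-5p, miR-487b-3p and miR-544-5p, from -1.21 to -1.72.

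Among 14 miRNAs listed for lipid and mitochondrial metabolism, the field in which miR-378 is best known, 11 were tested, with a median of -0.06. In catagen 4 (36.4%) passed upwards, miR-27a-5p (1.55), miR-27b-3p (0.80), miR-27b-5p (0.72) and miR-103-3p (0.60). In the other direction 1 (9.09%) passed, beside 21% upwards and 14% downwards of all miRNAs. Names were matched by family number, so both arms of a precursor were counted, miR-27a-5p and miR-27b-5p among them. The miR-27 family is studied as a restraint on fat cell formation, and its member miR-27a-3p stood at -0.10 (adjusted p = 0.546, edgeR). miR-122, a regulator of liver lipid metabolism, was the one that passed downwards (-3.05), with its high values in both male telogen libraries. With library totals 2 of the list passed upwards and 4 downwards, beside 19 and 90 of all 300 miRNAs.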

How the data were processed

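Reads were trimmed by the authors and aligned to goat build CHIR_2.0; miRNA candidates came from miREvo and mirDeep2, and abundances from Bowtie 0.12.9 (submitters' processing notes). The authors deposited raw counts per miRNA and library and TPM; how reads matching several miRNAs were assigned is not given in the sources used here. The deposited TPM equals the scaled count to within 0.005.

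Tests on counts used edgeR 4.0.16 in R 4.3.3 (more than 5 CPM in at least 2 libraries, TMM, glmQLFit and glmQLFTest, Benjamini-Hochberg over all 300 tested miRNAs). A miRNA passed with an adjusted p under 0.05 and was called with at least a 2-fold change as well. Phases were tested in 1 fit of all 12 libraries with 4 groups, adjacent months in a fit of 6 months, sex with month as covariate, and the interaction of sex with telogen and catagen in the 8 libraries of those phases. Arm ratios were tested with an exact permutation test (2 tests, p also adjusted over both) and limma 3.58.1. Levels for correlations are log2 CPM with a prior count of 1. Same-month libraries differed by 65.2 to 635 times the degrees of freedom of a chi-square test, so none was taken as a repeat. Depth was 3135292 to 5788032 counts. Steps across many miRNAs were tested on simulated data.

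Text values cover every arm of miR-378 and miR-335, the 5 miRNAs most like each 3p arm, the called miRNAs of the intronic, imprinted and metabolic lists, and marker lists; miR-150 was named after its value was seen. Members and lists were chosen with earlier results of these data known. Alternatives were RLE and library totals, other filters, DESeq2 1.42.0, a likelihood-ratio test, sex as a block and libraries left out. Those without both male telogen libraries, by sex and with limma for arm ratios were chosen after seeing the data. Mature sequences and target prediction were not analysed here.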

Additional observations from a re-analysis of the deposited data

Results flagged for a closer look

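In telogen, the male March library stood apart from the other 3 for miR-378-3p. Its TPM was 2881, and the others lay between 2354 and 2404, so that its gap to the nearest was 0.905 of the whole range (past Dixon's 95% critical value for 4 samples). On TMM-normalized CPM the same library, at 2339, lay within the range of the others (2101 to 2341). With 12 groups of 4 libraries examined in this way, about 1 in 20 would stand apart by chance.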

How the results depend on the processing

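miR-378-3p stayed past the threshold between catagen and telogen in each alternative run, and leaving out 1 library at a time gave 0.75 to 0.90. miR-335-3p ran from 0.86 to 1.29 in that way and stayed past the threshold except with library totals (0.70). The miRNAs called upwards between these phases numbered 13, against 5 with library totals, 63 with no minimum fold and 22 without both male telogen libraries; those called in either direction numbered 32, against 105 with no minimum fold. From December to February, miR-378-3p was at -0.56 with RLE and -0.43 with totals. Those called for a sex difference in the change from telogen to catagen numbered 4, against 11 with totals. Of these, 3 had a higher log2 change in females than in males, against 10 with totals. The May to September differences were 1.44 (miR-335-3p), 0.90 (miR-378-3p) and -1.10 (miR-378-5p) with totals, 0.10 for miR-335-5p in males alone, and 1.23 to 1.54 for miR-378-3p with 1 library left out. The arm ratio of miR-335 ran from -1.24 to -0.88 with 1 library left out, each with an exact permutation p of 0.0571, the smallest that 3 against 4 libraries allow. Of the 5 miRNAs most like miR-378-3p, 3 stayed with Spearman's rho, 2 with totals and 2 without May and September; for miR-335-3p 1 stayed without them. Why these values moved was not tested.

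Sex as a replicate block changed the call of no member (miR-335-3p 1.105, miR-378-3p 0.83, both passed). A filter of more than 10 CPM in at least 4 libraries removed miR-335-5p. May and September have 2 libraries each, and the 5p arms rest on 25 to 140 counts per library.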

Other observations

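Among the precursors of the intronic list, several had arms that passed in opposite directions between catagen and telogen. These were noticed after their values were seen. How many of all 82 precursors had arms that passed in opposite directions was not counted. miR-106b-3p, of the MCM7 intron, was at 0.85 and miR-106b-5p at -0.80 (adjusted p = 0.000435 and 0.00298, edgeR's quasi-likelihood test). miR-30e-3p was at 1.003 and miR-30e-5p at -0.65 (adjusted p = 0.00298 and 0.0329, same test). miR-500-3p was at 0.60 and miR-500-5p at -0.56 (adjusted p = 0.0137 and 0.0331, same test). These differences are on the TMM scale, and the ratio of the arms does not depend on it. In the fit over 82 precursors, the log2 ratio of 5p to 3p changed by -1.67 for miR-106b, -1.67 for miR-30e and -1.15 for miR-500. It changed by -1.07 for miR-335 and -0.47 for miR-378. Such shifts were not particular to the intronic list. In that fit 48.8% of all precursors passed in either direction, among them miR-195 (-2.11) and miR-27a (1.66), which are not in the intronic list.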
